A study of Mus musculus with 2 samples.

Results

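The genes of glucose uptake, glycolysis, lactate export, mitochondrial pyruvate entry and the hypoxia response were examined in BV2 cells, an immortalized mouse line of microglial origin. Microglia are the macrophages that reside in brain tissue. A list of 45 genes was taken by symbol from the array annotation, and 40 of them had at least 1 transcript cluster, a group of probes read as 1 value, that was paired with their symbol alone. Over the whole array 19938 genes had such a cluster. Of the remaining members, Gapdh was covered only by 25 clusters that list it together with other genes, and Gpi1, Eno1, Pfkfb1 and Mpc2 were not paired with a cluster in the annotation used here. The series holds 1 array of cells in DMEM and 1 array of cells in DMEM/F12, with no genetic change or added agent named in the labels for either culture. According to the methods, cells were seeded in DMEM/F12, the medium was changed on the next day to DMEM of the high glucose kind or to fresh DMEM/F12, both with fetal bovine serum, and RNA was taken after 1 d (the labels say over 1 day). The DMEM cells had therefore also been moved out of the medium they were seeded in, and how much glucose the DMEM/F12 held was not stated. BV2 is 1 immortalized line, and each medium is read by 1 array, so every difference below compares these 2 arrays and carries no replicate error or p-value.

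Cells take up glucose through transporters of the Slc2a family, trap it by phosphorylation and break it down in a chain of enzymes to pyruvate, which either is reduced to lactate and exported or enters mitochondria. Macrophages and microglia are known to lean on this pathway when they are activated. When oxygen is scarce, the transcription factor HIF-1 escapes degradation and binds short elements near many of these same genes, so glycolysis and hypoxia genes are often read together.

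A gene counted as above background when its signal exceeded, in at least 1 medium, nearly all clusters of olfactory, taste and vomeronasal receptor genes, which are hardly expressed outside sensory tissue. Of 15 measured microglia and macrophage markers 13 were above background, among them Cd68, Tyrobp and Adgre1, but P2ry12 and Aif1 were not. The marker list split into 8 higher, 6 lower and 1 equal, with a median log2 difference (DMEM/F12 minus DMEM) of 0.01. At least 1.2-fold lower in DMEM/F12 were 5 markers, Tmem119 (-0.66), C1qb (-0.60), C1qc (-0.80), Csf1r (-0.32) and Aif1 (-0.39, below background). The 2 markers at least 1.2-fold higher were Trem2 (0.40) and C1qa (0.44, near background at 4.22 and 4.66). Of all measured genes 10.5% were at least 1.2-fold lower and 11.2% higher. Past 1.5-fold were 3 markers lower and 0 higher, beside 0.727% and 0.928% of all genes. Above background were 2 of 8 neuron, 2 of 7 astrocyte, 5 of 6 oligodendrocyte and 1 of 5 endothelial markers. Over the whole array 13225 of 19938 genes passed this cut, so passing it says little about a cell type. Among these were Cnp (6.85 and 6.54), Cldn5 (5.10 and 5.22) and Mbp (5.09 and 5.05), while Snap25, Gfap, Mag and Pecam1 were below it. The methods describe only BV2 cells plated for the arrays, so these signals are not read as other cell types. Whether they bear on the differences of the glycolysis and hypoxia genes was not tested.

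In these cells the differences of the pathway's genes were centred on 0 and mostly small. The log2 difference, always taken as DMEM/F12 minus DMEM, had a median of 0.00 over the 40 measured members, with 20 higher and 20 lower. It was also 0.00 over all 19938 genes, with 9405 higher, 9080 lower and 1453 equal. The role groups below hold few genes each, so their direction counts describe these genes and do not show a trend of the group. At least 1.2-fold higher in DMEM/F12 were 3 members (7.50%), Pfkm, Pdk2 and Hk3, beside 11.2% of all measured genes. At least 1.2-fold lower were also 3 members (7.50%), Slc2a6, Pfkp and Bnip3, beside 10.5% of all genes. Among genes above background these shares were 9.84% and 9.67%, and among the 37 members above background 8.11% in each direction. No member reached 1.5-fold, which 0.928% of all genes did upward and 0.727% downward. The members were thus past 1.2-fold no more often than genes in general.

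The sizes of single differences can be set beside one internal yardstick. For 521 genes with exactly 2 clusters above background on both arrays, the differences given by both clusters of a gene lay 0.10 apart in the median and 0.35 at the 90th percentile. Only Slc2a6 and Pfkm among the measured members differed between the media by more than 0.35. Pairs of clusters with identical values were not left out, and any such pair makes this spread smaller. The spread is a gap between clusters on the same arrays and is not the error between cultures. The value 0.35 is therefore no cut-off for a change between the media. In bulk RNA, a change in RNA per cell and a change in the kinds of cells present cannot be told apart.

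**Figure D1:**
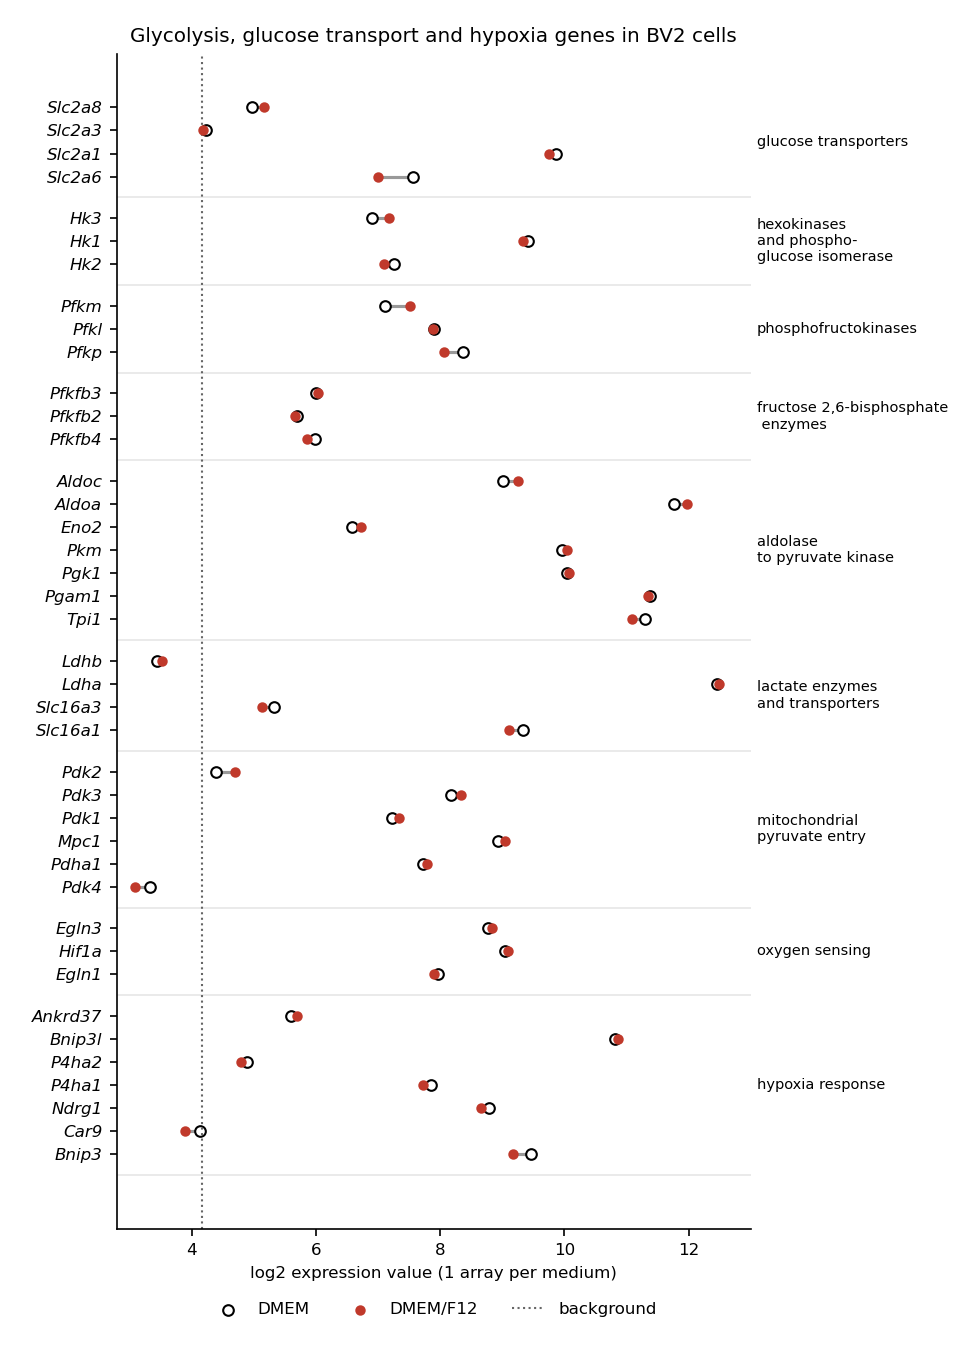
Log2 expression value (x axis) of the 40 measured genes (y axis, grouped by role and ordered by difference) in DMEM (open circles) and in DMEM/F12 (red circles), 1 array each, with the dotted line at the mean background. Most pairs of circles touch or overlap, and the longest gray line is that of Slc2a6, at 7.57 in DMEM and 7.0 in DMEM/F12.

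Of the 4 glucose transporter genes 3 were lower in DMEM/F12 and 1 higher, with a median of -0.08. Slc2a1, which encodes GLUT1, the main basal glucose transporter of most cells, gave log2 values of 9.87 (DMEM) and 9.75 (DMEM/F12). Its difference of -0.12 lay at the 27.6th percentile of all genes. Slc2a6, which encodes the macrophage-enriched lysosomal transporter GLUT6, had 7.57 in DMEM and 7.0 in DMEM/F12. This was the lowest difference of all measured members (-0.57, 1.48-fold lower) and lay at the 0.82th percentile of all genes, just short of 1.5-fold. Slc2a8, encoding the intracellular transporter GLUT8, leaned the other way with 4.97 and 5.16 (0.19). Slc2a3, encoding the high-affinity neuronal transporter GLUT3, was barely above background in both media, at 4.23 and 4.19, where background was 4.15 on the DMEM array and 4.17 on the DMEM/F12 array.

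Hexokinases, which phosphorylate glucose on entry, differed by isoenzyme. Hk3, a hexokinase typical of myeloid cells, was 6.91 in DMEM and 7.18 in DMEM/F12 (0.27, 1.21-fold higher). Hk2, the inducible form that HIF-1 is known to control, was 7.26 and 7.10 (-0.16). Hk1, the broadly expressed form, had 9.42 and 9.34 as the mean of 2 clusters that stood far apart. Cluster 10369541, annotated with 8 transcript records, gave 7.47 and 7.40 (-0.07), whereas cluster 10414661, annotated with 1 record, gave 11.37 and 11.27 (-0.10). The annotation also lists Hk1 on 16 clusters shared with the ribosomal protein gene Rpl17, whose values in DMEM ran from 10.29 to 11.38, a range that includes the brighter Hk1 cluster. Whether that cluster reads Hk1 transcripts was not tested. Both clusters gave a small lower value in DMEM/F12, so the direction did not depend on which was used.

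Phosphofructokinase, which carries out the committed step of glycolysis, is built from 3 related subunits, and these went separate ways. Pfkm, the muscle-type subunit, was 7.11 (DMEM) and 7.52 (DMEM/F12), the highest difference of all members (0.41, 1.33-fold, 96.4th percentile). Pfkp, the platelet-type subunit, was 8.37 and 8.06 (-0.31, 1.24-fold lower, 7.49th percentile). Pfkl, the liver-type subunit, was 7.91 and 7.89 (-0.02). Thus one subunit was higher, one lower and one level, and the group median was -0.02. The bifunctional enzymes that set the level of fructose 2,6-bisphosphate, the strongest activator of phosphofructokinase, stayed close. Pfkfb3, the form with the highest kinase activity, was 6.0 and 6.03 (0.03), Pfkfb2 was 5.69 and 5.66 (-0.03) and Pfkfb4 was 5.99 and 5.85 (-0.14).

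**Figure D2:**
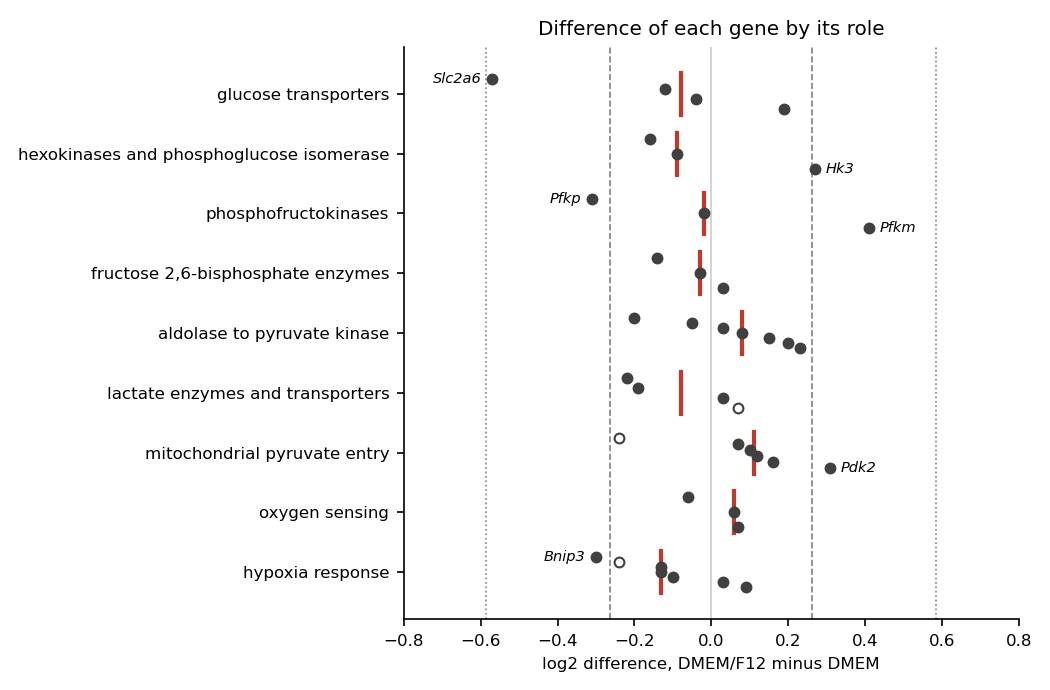
Each measured gene by role (y axis) and its log2 difference between the media (x axis, DMEM/F12 minus DMEM), 1 point per gene, open where the gene was not above background. Red bars are medians of the role, dashed lines mark 1.2-fold and dotted lines 1.5-fold. Pfkm (0.41) and Pfkp (-0.31) lie on opposite sides, and Slc2a6 (-0.57) lies farthest out.

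The lower part of the pathway, from aldolase to pyruvate kinase, had 5 of 7 measured genes higher and a median of 0.08, and none was past 1.2-fold. Both aldolases were among the higher genes. Aldoa, the main form in muscle and many cultured cells, was 11.77 in DMEM and 11.97 in DMEM/F12 (0.20), and Aldoc, the brain form, was 9.02 and 9.25 (0.23). Tpi1, triosephosphate isomerase, was the lowest at 11.29 and 11.09 (-0.20). Aldolase and triosephosphate isomerase act one after the other, and their transcripts differed in opposite directions by about the same amount. Pgk1, phosphoglycerate kinase, gave 0.03 in each of its 3 clusters. Pgam1, phosphoglycerate mutase, had 3 clusters at -0.07, -0.07 and 0.00, and Eno2, the neuronal enolase, was 6.58 and 6.73 (0.15). Pkm, pyruvate kinase, gave 10.34 and 10.32 on the cluster with 8 transcript records and 9.60 and 9.78 on another with 2 records. For Gapdh, glyceraldehyde-3-phosphate dehydrogenase, no value is given because its 25 clusters list other genes too, and all of those clusters differed by -0.06 to 0.03. Some clusters of Pgk1 and Pgam1 had identical values on both arrays to 2 decimals, so they cannot be counted as separate measurements.

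Among the lactate genes, Ldha RNA was nearly level and the RNA of both monocarboxylate transporters was slightly lower in DMEM/F12. Ldha, the lactate dehydrogenase subunit that favours lactate formation, was 12.46 in DMEM and 12.49 in DMEM/F12 (0.03), while Ldhb was below background on both arrays at 3.44 and 3.52. Slc16a1, encoding the monocarboxylate transporter MCT1, was 9.33 and 9.11 (-0.22), and Slc16a3, encoding MCT4, the transporter suited to lactate export, was 5.32 and 5.13 (-0.19). Both transporters were lower in DMEM/F12, though neither was past 1.2-fold.

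At the entrance to mitochondria 5 of 6 measured genes were higher in DMEM/F12, with a median of 0.11. Pyruvate dehydrogenase kinases switch off the enzyme that turns pyruvate into acetyl-CoA. Pdk2 was 4.39 in DMEM and 4.70 in DMEM/F12 (0.31, 1.24-fold higher), not far above background in either medium. Pdk3 was 8.17 and 8.33 (0.16) and Pdk1, a classical HIF-1 target, 7.22 and 7.34 (0.12). Pdk4, which responds to fatty acids and fasting, was below background with 3.33 and 3.09. Pdha1, the catalytic subunit that these kinases phosphorylate, was 7.72 and 7.79 (0.07), and Mpc1, a subunit of the mitochondrial pyruvate carrier, 8.94 and 9.04 (0.10). Of the 4 kinases Pdk1, Pdk2 and Pdk3 were higher, as was Pdha1, and Pdk4 was not above background.

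The 3 oxygen-sensing genes differed by values between -0.06 and 0.07, with a median of 0.06. Hif1a, the oxygen-regulated subunit of HIF-1, was 9.04 in DMEM and 9.10 in DMEM/F12. Egln1 and Egln3 encode prolyl hydroxylases that mark HIF for degradation when oxygen is present. Egln1 was 7.97 and 7.91, and Egln3, itself a known HIF target, was 8.77 and 8.84. HIF is known to be controlled mostly through the stability of its protein, which the arrays do not measure.

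Among the hypoxia-response genes 5 of 7 were lower in DMEM/F12, with a median of -0.13. Bnip3, a mitochondrial protein of mitophagy, was 9.47 (DMEM) and 9.17 (DMEM/F12), a difference of -0.30 or 1.23-fold, and its 2 clusters gave -0.34 and -0.26. Bnip3l, its relative with a similar role, did not share this difference, at 10.82 and 10.86 (0.03), with 2 clusters at 0.02 and 0.04. P4ha1 and P4ha2, collagen prolyl hydroxylases, differed by -0.13 (7.85 and 7.72) and -0.10 (4.90 and 4.80). Ndrg1, a stress-responsive gene, differed by -0.13 (8.79 and 8.66). Ankrd37, a small ankyrin-repeat gene strongly induced by HIF-1 in many cells, was 5.60 and 5.69 (0.09). Car9, carbonic anhydrase IX, which is hardly expressed without active HIF in most cells, was not above background in either medium (4.13 and 3.89). When dim values were set to the background level, the differences of Car9 and Pdk4, both -0.24, became 0.02.

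**Figure D3:**
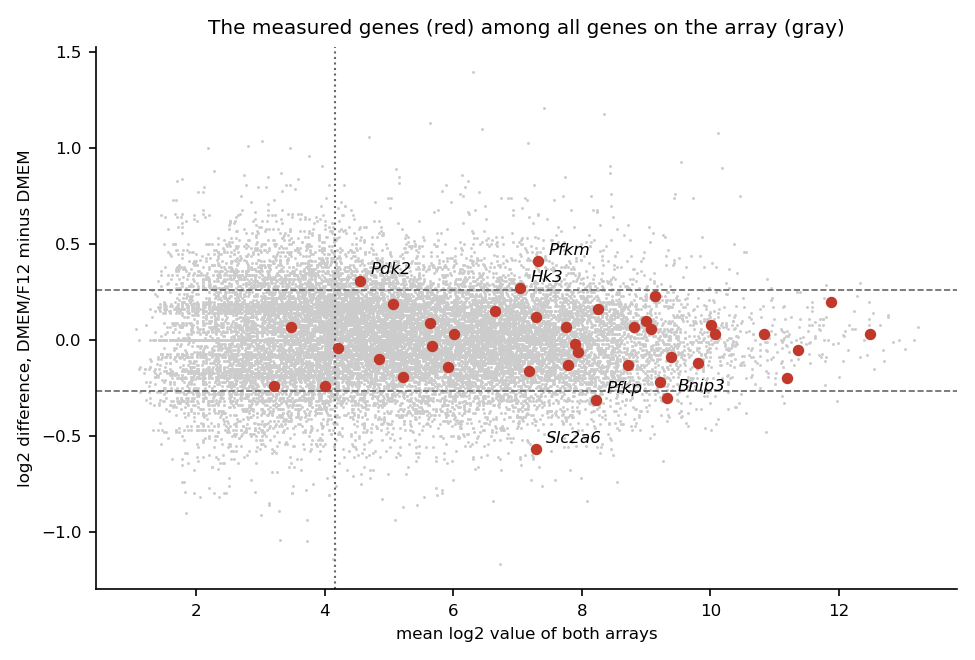
Difference on the log2 scale (y axis, DMEM/F12 minus DMEM) against the mean log2 value of both arrays (x axis) for the 40 measured genes (red) and all 19938 genes (gray), where dashed lines mark 1.2-fold and background is dotted. The red points lie within the gray cloud at every signal level, and the 6 named genes are those past 1.2-fold.

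Promoter sequence was examined because many of these genes, though not all, are known HIF targets. RefSeq promoter windows of GRCm38.p6 (300 bases, from 250 before to 50 after a transcript start) were found for 42 of the 45 members. They were searched on both strands for the core of the hypoxia response element, ACGTG or GCGTG, and for the E-box CACGTG, which contains ACGTG on both strands. ACGTG was found in at least 1 window of 26 of 42 members (61.9%), against 21.8% of all 27025 genes with a window and 28.1% of the 10512 genes above background. GCGTG was found in 69.0% of the members, 35.2% of all genes and 53.6% of genes above background. The E-box was found in 19.0%, 8.09% and 11.3%. Counted by window, ACGTG occurred in 19.6%, GCGTG in 32.4% and CACGTG in 7.15% of all 32851 windows. A gene with several windows, such as Pfkm with 4, has more chances to hold a match. The members were not counted by window, so the shares by gene are not corrected for this. All 8 oxygen-sensing and hypoxia-response genes with a window held ACGTG. A match describes letters in a window and is not a binding site.

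The presence of ACGTG did not separate higher from lower members. The 25 measured members with a match had a median difference of 0.03 (13 higher and 12 lower, from -0.30 to 0.41), and the 12 without a match also 0.03 (6 higher and 6 lower, from -0.57 to 0.19). Among genes above background the medians were -0.01 with and 0.00 without a match. Of the members past 1.2-fold, Pfkm, Pdk2 and Hk3 (higher) and Bnip3 (lower) held ACGTG, and Slc2a6 and Pfkp (lower) did not. The following 250 bases before the start are given for 5 genes, 5' to 3' along the gene with each ACGTG or GCGTG on either strand in capitals. Slc2a6 is the lowest member and has GCGTG but no ACGTG, Bnip3 is the hypoxia-response gene past 1.2-fold, and Egln3, Ankrd37 and Ldha hold ACGTG and differed by less than 0.1.
Slc2a6 (chr2:27027999-27028248, minus strand): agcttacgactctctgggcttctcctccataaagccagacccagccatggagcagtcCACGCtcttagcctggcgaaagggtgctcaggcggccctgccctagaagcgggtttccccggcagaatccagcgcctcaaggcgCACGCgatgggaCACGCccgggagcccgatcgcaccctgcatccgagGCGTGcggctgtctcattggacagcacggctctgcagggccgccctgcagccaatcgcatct
Bnip3 (chr7:138909507-138909756, minus strand): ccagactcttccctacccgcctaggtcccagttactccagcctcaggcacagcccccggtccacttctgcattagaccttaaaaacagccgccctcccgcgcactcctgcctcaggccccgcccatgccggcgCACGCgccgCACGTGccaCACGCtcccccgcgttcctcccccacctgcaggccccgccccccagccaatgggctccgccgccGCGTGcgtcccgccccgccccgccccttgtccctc
Egln3 (chr12:54203875-54204124, minus strand): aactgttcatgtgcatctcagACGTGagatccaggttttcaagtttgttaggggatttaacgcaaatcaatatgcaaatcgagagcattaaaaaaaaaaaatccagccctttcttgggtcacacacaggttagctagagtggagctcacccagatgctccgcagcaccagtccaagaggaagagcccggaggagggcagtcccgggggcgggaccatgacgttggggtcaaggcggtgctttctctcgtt
Ankrd37 (chr8:45999851-46000100, minus strand): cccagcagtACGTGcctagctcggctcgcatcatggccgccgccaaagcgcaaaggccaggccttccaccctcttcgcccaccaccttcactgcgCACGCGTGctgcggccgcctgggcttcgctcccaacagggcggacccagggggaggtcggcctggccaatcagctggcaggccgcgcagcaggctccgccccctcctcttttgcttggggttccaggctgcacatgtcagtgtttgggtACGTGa
Ldha (chr7:46845554-46845803, plus strand): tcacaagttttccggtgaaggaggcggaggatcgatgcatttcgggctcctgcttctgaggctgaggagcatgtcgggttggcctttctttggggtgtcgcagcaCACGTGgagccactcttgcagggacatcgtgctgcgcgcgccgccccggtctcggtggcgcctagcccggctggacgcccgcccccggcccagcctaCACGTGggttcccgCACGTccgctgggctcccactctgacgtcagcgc

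In the Bnip3 window the ACGTG match lies inside an E-box, from 108 to 103 bases before the start counting both strands, and 3 GCGTG matches lie around it. Ldha has 2 E-boxes, at 145 to 140 and at 48 to 43 bases before the start, and a further ACGTG on the other strand at 34 to 30. Ldha was shown with 1 of its 2 windows, the one with more matches. Ankrd37 has ACGTG at 241 to 237 and directly at the start, at 6 to 2 bases before it, while Egln3 has a lone ACGTG at 229 to 225. Bnip3 and Ldha both have the E-box, and their differences between the media were -0.30 and 0.03. Whether these matches bear on expression was not tested.

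Genes of neighbouring pathways were read from lists that hold no member. In the glucose-sensing list 6 of 9 measured genes were higher in DMEM/F12. Upward past 1.5-fold were 3 of them, beside 0.928% of all measured genes. The list was chosen with earlier results of these data known, so these counts are not a finding about glucose sensing. Txnip, which restrains glucose uptake and is induced when glucose metabolites accumulate, was 9.08 in DMEM and 10.01 in DMEM/F12 (0.93, 1.91-fold higher), and its relative Arrdc4, which shares that regulation, was 6.74 and 7.48 (0.74, 1.67-fold). Prkaa2, a catalytic subunit of the energy sensor AMPK, was 7.0 and 7.65 (0.65) and was singled out after its value was seen. The transcription factor genes known to drive Txnip and Arrdc4 differed little, Mlxip by 0.14, Mlx by -0.05 and Mlxipl by -0.01, and were also picked after their values were known. GLUT1, whose surface level TXNIP lowers, differed at the RNA level by -0.12, as given above.

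The other oxygen-sensing genes had 4 of 8 higher and a median of 0.02. Epas1, which encodes HIF-2 alpha, was 8.09 in DMEM and 8.56 in DMEM/F12 (0.47, 1.39-fold higher), unlike Hif1a at 0.06, and the partner subunit gene Arnt2 was 4.87 and 5.28 (0.41). Lower by more than 1.2-fold were Hif1an, which encodes the asparagine hydroxylase that inhibits HIF (6.01 and 5.69), and Hif3a, which was below background, both named after their values were seen. Of 28 other known hypoxia targets, 12 were higher, 15 lower and 1 equal (median -0.03). Pam, a peptide-amidating enzyme, was 6.90 and 7.37 (0.47), whereas Tfrc, the transferrin receptor gene that iron also controls, was 8.78 and 8.18 (-0.60, 1.52-fold lower). Vegfa, the classical HIF-driven growth factor, differed by 0.11, and Adm was below background. Hypoxia targets outside the member list were thus split between directions as well.

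In the pentose phosphate pathway, which branches off after hexokinase, the 7 measured genes split into 3 higher, 3 lower and 1 equal (median 0.00). Shpk, sedoheptulokinase, was the farthest at 5.04 and 4.63 (-0.41). Rpia, ribose 5-phosphate isomerase, was 6.65 and 6.46 (-0.19), and Tkt, transketolase, differed by the same size in the other direction at 8.20 and 8.39 (0.19). Of the 8 other pyruvate dehydrogenase complex genes 5 were higher, with a median of 0.04. Dlat, the acetyltransferase core, was 7.66 and 7.94 and Pdpr, a regulator of the phosphatase, 6.99 and 7.27, both 0.28. Of the 9 other glucose and polyol transporters only 4 were above background. Slc2a4, the insulin-regulated GLUT4, was 4.84 and 5.14 (0.30) and Slc2a9, a urate transporter, 6.16 and 6.30 (0.14), a difference shared by the sodium-glucose cotransporter Slc5a2 (5.13 and 5.27). Slc2a5, the fructose transporter often used as a microglial marker, was not above background (4.12 and 3.79).

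**Figure D4:**
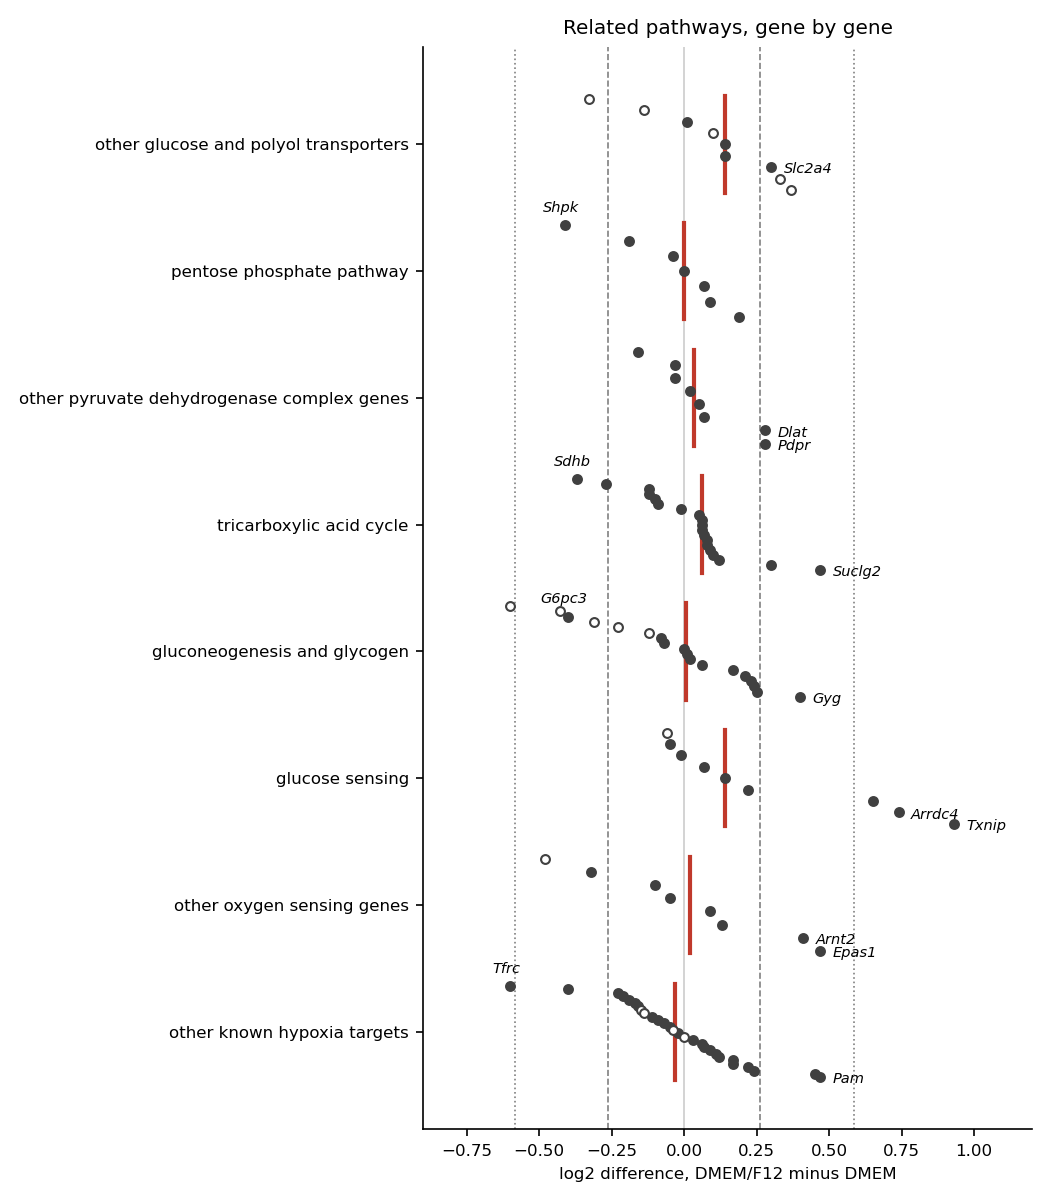
Genes in the lists of related pathways (y axis) and their log2 differences between the media (x axis, DMEM/F12 minus DMEM), open where not above background, with red bars at list medians, dashed lines at 1.2-fold and dotted lines at 1.5-fold. Txnip (0.93) and Arrdc4 (0.74) lie farthest to the right, while the list medians lie between -0.03 and 0.14.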

How the data were processed

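The authors hybridized 1 RNA sample per medium to Affymetrix arrays of the Mouse Gene ST type (1.0) and deposited log2 values of 28944 transcript clusters, made with Expression Console and Transcriptome Analysis Console. Software versions, probe summarization, scaling between arrays and the build: not given in the sources used here. Samples were grouped by the labels. Of the clusters 21789 had exactly 1 symbol in the platform annotation, 1621 several and 5534 none. A gene took the mean of its clusters, and all 49 clusters of measured members had an Entrez number found in RefSeq. Array medians were 4.75 (DMEM) and 4.77 (DMEM/F12). Each array's background was the 95th percentile over 1248 clusters for taste, olfactory and vomeronasal receptors, and a gene was above background if any of its clusters exceeded it on at least 1 array.

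The members and gene lists were chosen with earlier results of these data known. Described in full were members past 1.2-fold and the extremes of each role group. Of each related list the rule took the 2 genes above background that differed most. Other genes named from the related lists, such as Tkt, Slc5a2, Slc2a5 and Vegfa, were not picked by this rule. Their values do not stand for their lists. With 1 array per medium no test was run, and precision is limited by having so few arrays. The steps were tested on simulated data, where the planted changes were larger than that of any member. That test therefore does not show how reliably differences near 1.2-fold are found. The alternatives were 3 scalings (median, quantile, loess with span 0.3), the brightest cluster per gene, values below background raised to it, only genes above background, and thresholds of 1.1-fold and 1.5-fold. Python 3.11.15, numpy 2.4.6, pandas 2.3.3, statsmodels 0.14.6 and matplotlib 3.10.9 were used.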

Additional observations from a re-analysis of the deposited data

How the results depend on the processing

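No paired analysis was possible because there was only 1 array per medium. Shifts over 0.1 (log2) in a value and over 1.5 times in a count are given. The member median stayed between -0.01 and 0.03 under the 6 alternatives in scaling, cluster choice and dim values. The counts past 1.2-fold ran from 2 to 3 higher and from 2 to 4 lower under them: Hk3 (0.25) dropped out with median centring, Bnip3 (-0.26) with its brightest cluster, and the dim gene Car9 (-0.26) came in with loess. Only the threshold moved the counts, to 8 higher and 10 lower at 1.1-fold and to 0 and 0 at 1.5-fold. No member past 1.2-fold changed direction under any alternative run. With values below background raised to it the differences of Car9 and Pdk4 moved to 0.02, and with only genes above background the median of the lactate genes moved from -0.08 to -0.19. Signal near background limits Slc2a3, Pdk2, Pdk4, Ldhb and Car9.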

Other observations

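Downstream of pyruvate, the 19 measured genes of the tricarboxylic acid cycle, all above background, split into 12 higher in DMEM/F12 and 7 lower (median log2 difference 0.06). Suclg2, the subunit of succinyl-CoA ligase that uses GDP, was 7.31 in DMEM and 7.79 in DMEM/F12 (0.47), whereas its partner Suclg1 was 7.63 and 7.36 (-0.27) and the ADP-linked subunit gene Sucla2 differed by -0.12. Sdhb, the iron-sulfur subunit of succinate dehydrogenase, was 8.03 and 7.66 (-0.37), while Sdha, Sdhc and Sdhd, the other subunits, differed by 0.10, 0.06 and 0.07. Idh2, the mitochondrial NADP-linked isocitrate dehydrogenase, was 8.97 and 9.27 (0.30). Suclg1, Sucla2, Idh2 and the other succinate dehydrogenase subunits were chosen after their values were seen.

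Among the genes of gluconeogenesis and glycogen 18 were measured and 13 lay above background; 9 were higher, 8 lower and 1 equal (median 0.01). G6pc3, the widely expressed glucose-6-phosphatase that myeloid cells depend on, was 8.04 in DMEM and 7.64 in DMEM/F12 (-0.40). Gyg, glycogenin, which primes glycogen synthesis, was 5.24 and 5.64 (0.40). The liver-type genes Fbp1, G6pc and Gys2 were below background on both arrays. Gys1, Pgm1 and Gbe1 are counted both here and among the hypoxia targets.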
